A study of Mus musculus with 12 samples.

Results

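The 31 genes described here encode the pyruvate dehydrogenase complex, its kinases and its phosphatase subunits, enzymes of the citric acid cycle, and the malic enzymes, transhydrogenase and citrate carrier connected with it. They were taken by name from a list and not by any measured value, but the list was chosen with earlier results of these data known. The genes make up 31 of the 54232 gene IDs in the count tables. All 31 passed the filter on low counts, among 17721 genes tested.

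RNA of whole eye organoids was sequenced in 12 libraries, 4 in each of 3 groups. The organoids were grown from 1 line of mouse embryonic stem cells, derived from EB5 cells, in which GFP was knocked in at 1 allele of Rax, an eye field transcription factor, so all groups carry this reporter. All were collected on day 7, either without treatment (control), after 3 days with 20 µM GNE-140, an inhibitor of lactate dehydrogenase (LDHi), or after 3 days with 20 µM GNE-140 together with 25 mM sodium L-lactate (LDHi+lactate). According to the labels, lactate was given for 12 h ahead of the inhibitor, whereas the methods of the study describe it as added in the presence of the inhibitor. The labels call the cells of replicates 1 and 2 eye organoid and those of replicates 3 and 4 retina progenitors, and the study counts 4 independent experiments.

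The pyruvate dehydrogenase complex turns pyruvate into acetyl-CoA in the mitochondrial matrix and so decides how much of the product of glycolysis enters the citric acid cycle rather than being reduced to lactate. Its kinases phosphorylate the E1 alpha subunit and switch the complex off, and its phosphatases reverse this. The cycle then oxidizes acetyl-CoA, while malic enzymes convert malate back to pyruvate and the citrate carrier takes citrate to the cytosol for lipid synthesis.

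The libraries held 22174002 to 48271386 counts, with 37284585 to 48271386 in replicates 1 and 2 and 22174002 to 29919036 in replicates 3 and 4. Levels are given as CPM, counts scaled to a common library size with TMM, and a gene was called when its adjusted p was under 0.05. Libraries with the same replicate number deviated together from their group means, so each comparison is given without and with the replicate number as a block. The summed CPM of 6 retina progenitor markers was 587 to 1200 in control, 416 to 501 in LDHi and 594 to 864 in LDHi+lactate. That of 6 pluripotency markers was 197 to 387, 519 to 916 and 411 to 835 in the same order. In the blocked fit of LDHi against control all 6 retina progenitor markers were lower and all 6 pluripotency markers were higher. In bulk RNA, fewer cells of a type and less RNA per cell cannot be told apart.

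The 31 genes together took 3690 ± 189 CPM (SD, n = 4) in control, 3710 ± 136 in LDHi and 3760 ± 147 in LDHi+lactate. They were well expressed, with 28 of 31 above a mean of 10 CPM (90.3%, against 57.5% of all genes tested) and 17 above 100 CPM (54.8%, against 15.8%). Only Pdk4, Me3 and Nnt lay under 10 CPM.

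To compare genes with each other, CPM were divided by the exon length in kilobases, taken over all annotated exons of a gene. The transcripts in use were not measured, so the order and shares of genes depend on this annotation. Among the complex subunits in control organoids, Pdha1, the E1 alpha subunit that the kinases phosphorylate, had 62.9 ± 5.51 CPM per kb (SD, n = 4). Dld, the E3 subunit that other 2-oxoacid dehydrogenases share, had 49.8 ± 4.36, and the ranges of these top genes overlapped. Dlat (E2) and Pdhb (E1 beta) followed at 26.0 and 15.3 CPM per kb, ahead of Pdhx (E3-binding protein) with 6.7% of the summed level of the subunits, each without overlap with the one before. Of the kinases, Pdk1 made up 51.0% of the summed level per kb in control, Pdk3 34.5%, Pdk2 13.0% and Pdk4 1.56%, with no overlap between neighbours. Of the phosphatase subunits, the regulatory subunit Pdpr led with 8.56 CPM per kb, ahead of the catalytic subunits Pdp2 with 5.28 and Pdp1 with 3.86, whose ranges overlapped.

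The highest level per kb of all 31 genes was that of Idh2, the mitochondrial NADP-dependent isocitrate dehydrogenase, with 124 ± 8.29 CPM per kb in control. Idh1, its cytosolic counterpart, had 91.1 ± 11.5 and citrate synthase (Cs) 67.7 ± 5.23. Before division by length, Cs was above Idh2, with control means of 391 and 321 CPM. The subunits of the NAD-dependent enzyme of the cycle lay at 47.4 (Idh3g), 47.1 (Idh3b) and 20.2 (Idh3a), the first pair overlapping, and Aco1, the cytosolic aconitase, at 26.9 CPM per kb. From 2-oxoglutarate to malate, levels in control ran from fumarase (Fh1) at 45.2 through Ogdh at 32.5, Suclg1 at 28.1, Sucla2 at 27.9, Dlst at 19.6 and Ogdhl at 18.3 to Suclg2 at 16.7 CPM per kb. Before division by length, Dlst was the highest of these genes, with a control mean of 187 CPM. In the order per kb only Fh1 and Ogdh, and Sucla2 and Dlst, were neighbours without overlap. The ADP-forming subunit Sucla2 of succinyl-CoA ligase was thus above the GDP-forming Suclg2, with a Suclg2 to Sucla2 ratio per kb of 0.601 ± 0.0641 in control, 0.51 ± 0.0833 in LDHi and 0.561 ± 0.0653 in LDHi+lactate.

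In the last group, the citrate carrier Slc25a1 had 59.9 ± 5.75 CPM per kb in control, Me2 10.8 ± 2.06 and Me1 7.17 ± 2.25. Me3, with 0.126, and the transhydrogenase gene Nnt, with 0.0739, lay far under them. Nnt is uncertain, because the annotation holds a second Nnt ID on the same strand that shares 47.4% of its exons and holds 0 counts, and only 250 counts were assigned to Nnt over the 12 libraries.

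**Figure D1:**
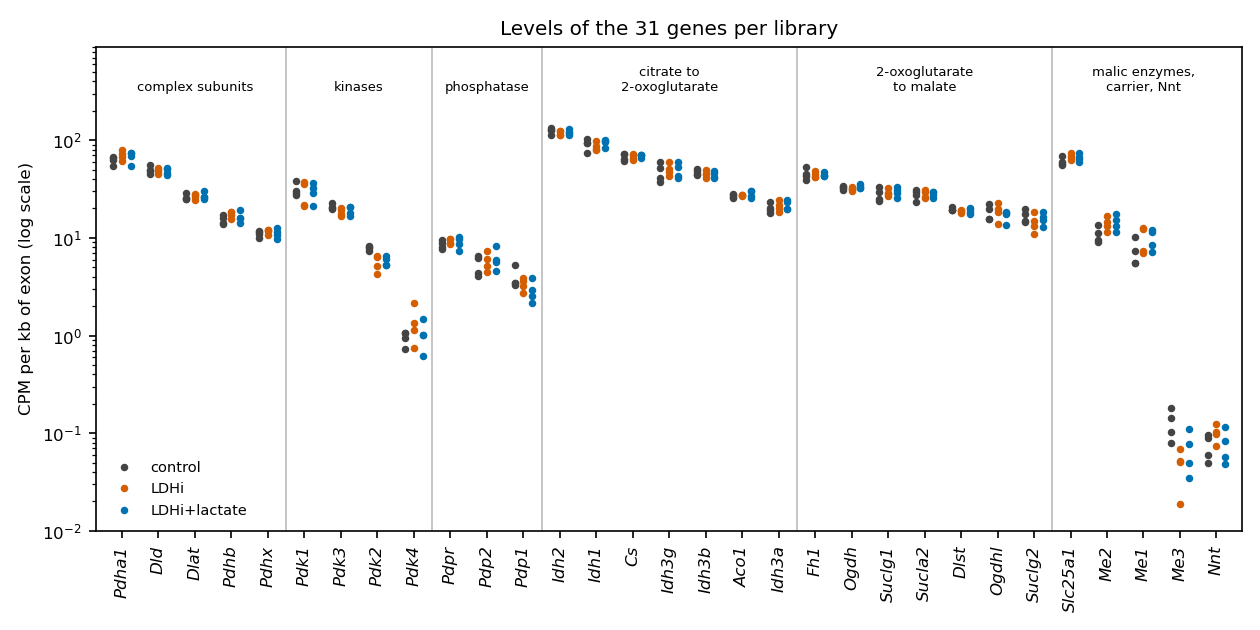
CPM per kilobase of exon, on a log scale, of the 31 genes in each of the 12 libraries (1 point per library, coloured by group), ordered within each role by the mean in control. Most genes sit between 10 and 124 CPM per kb with the 3 groups on top of each other, whereas Me3 and Nnt sit near 0.1.

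Inhibition of lactate dehydrogenase was compared with control first, to see which of these genes differed when the conversion of pyruvate to lactate was blocked. Without the block, 0 of 31 genes were called, where 3.09% of all genes tested were. With the replicate block, 5 of 31 genes were called (16.1%), where 19.9% of all genes were. Of these, Me1 and Me2 were higher (2 of 31, against 9.85% of all genes), and Pdk2, Me3 and Suclg2 were lower (3 of 31, against 10.1%). The share called among the 31 genes was thus not above that among all genes.

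DESeq2 without a block called 2 of 31 genes, Pdk2 and Me3, against 7.04% of the genes it tested, and at an unadjusted p under 0.05 edgeR without the block had 2 of 31 (6.45%, against 16.5% of all genes). With the block, 8 of 31 were under that value (25.8%, against 32.8% of all genes). Libraries of LDHi and control did not overlap for 2 of 31 genes, Pdk2 and Me3, where this held for 9.67% of all genes. The median absolute log2 fold change in the blocked fit was 0.10 over the 31 genes and 0.19 over all genes tested. It was 0.08 over the 28 members with a mean of at least 10 CPM and 0.13 over the 10187 such genes in all. The 95% interval of the blocked log2 fold change lay within 0.5 of 0 for 24 of 31 genes, which holds the change of each of them to under 0.5 on the log2 scale in either direction. This was so for 77.4% of the 31 genes and 48.8% of all genes, and for 85.7% and 78.8% where the mean was at least 10 CPM.

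**Figure D2:**
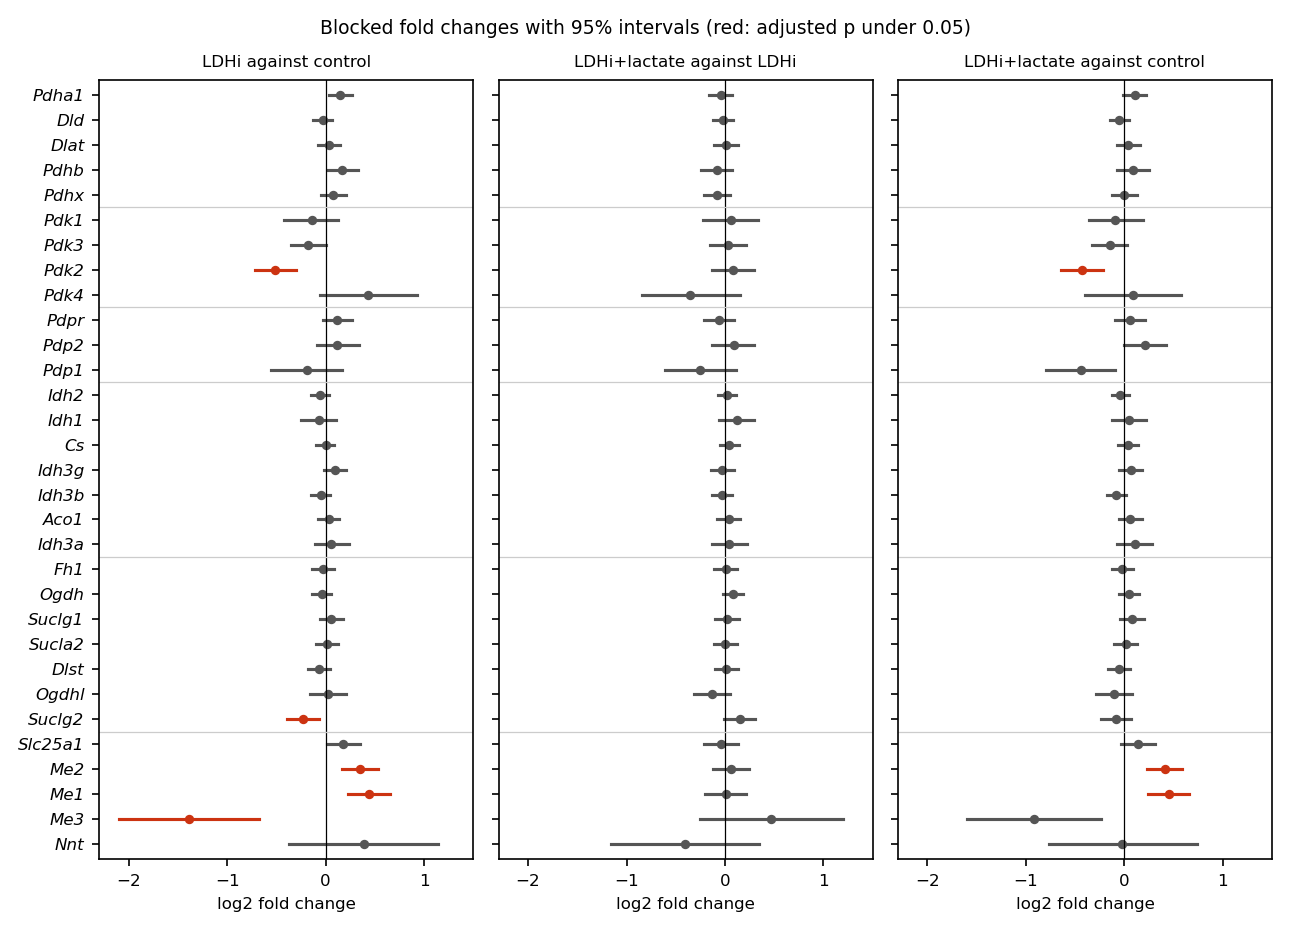
Log2 fold changes from the edgeR fit with the replicate block (points) with 95% intervals (bars) for the 31 genes in the 3 treatment comparisons, ordered as in the plot of levels. Called genes are red: Pdk2, Suclg2, Me1, Me2 and Me3 in LDHi against control, none in LDHi+lactate against LDHi, and Pdk2, Me1 and Me2 in LDHi+lactate against control.

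The clearest difference among the kinases was in Pdk2, a broadly expressed kinase of the complex (chromosome 11, 95026258 to 95041354, minus strand, mm10). Its control libraries had 25.9, 23.1, 24.7 and 25.3 CPM for replicates 1 to 4. The LDHi libraries had 20.4, 16.3, 13.4 and 19.9 CPM. All 4 LDHi libraries lay under all 4 control libraries. The means were 24.7 ± 1.22 (SD, n = 4) and 17.5 ± 3.31, and Pdk2 was 0.701-fold in the blocked fit (log2 fold change -0.51, SE 0.10, adjusted p = 0.00477), with a ratio of 0.541 to 0.788 within the 4 replicate numbers. Without the block the log2 fold change was -0.50 with an adjusted p of 0.0865, and the two-sided exact permutation test gave p = 0.0286, the smallest that 4 against 4 libraries allow. With each replicate number left out in turn and the block kept, the adjusted p stayed between 0.016 and 0.0233, and the log2 fold change was -0.42 in replicates 1 and 2 and -0.60 in replicates 3 and 4.

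Sequence at the start of Pdk2 and of Me1 is shown because these genes were called in both comparisons with control. The windows run from 250 bases before to 50 bases after the start site in RefSeq (GRCm38.p6), 5′ to 3′ on the gene's minus strand, and lie at chr11:95041322-95041621 for Pdk2 and at chr9:86695865-86696164 for Me1. Capitals mark motif matches.
Pdk2: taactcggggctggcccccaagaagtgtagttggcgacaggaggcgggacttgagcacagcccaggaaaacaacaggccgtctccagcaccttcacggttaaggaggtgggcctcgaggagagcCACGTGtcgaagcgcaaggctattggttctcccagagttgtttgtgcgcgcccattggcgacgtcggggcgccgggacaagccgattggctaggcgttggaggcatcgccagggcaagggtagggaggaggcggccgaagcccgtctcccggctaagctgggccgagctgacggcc
Me1: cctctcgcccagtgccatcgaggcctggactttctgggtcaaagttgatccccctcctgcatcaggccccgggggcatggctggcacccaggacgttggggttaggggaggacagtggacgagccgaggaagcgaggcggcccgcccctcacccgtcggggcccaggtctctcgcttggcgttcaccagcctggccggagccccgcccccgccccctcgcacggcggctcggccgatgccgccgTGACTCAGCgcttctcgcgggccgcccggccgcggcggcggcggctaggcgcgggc
Both strands were searched for 4 motifs, which can overlap: TGACNNNGC, the core of the antioxidant response element, ACGTG, the core of the hypoxia response element, CCGGAAG, the core of ETS sites, and GCGCATGC, the core of NRF1 sites. The Pdk2 window holds CACGTG at bases 125 to 130, counted from its 5′ end, a single stretch that matches ACGTG on each strand. The Me1 window holds TGACTCAGC at bases 245 to 253. Each gene has 1 further start site in the table, where the window of Me1 has 1 match to CACGT and that of Pdk2 has none.

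Windows were found for 27 of the 31 genes (36 start sites), all but Pdp1, Idh3a, Me2 and Nnt. The antioxidant response element core was in 6 of these 36 windows (16.7%) and in 12.4% of all 32851 windows, and the genes holding it were Dlst, Idh3g, Me1, Ogdhl, Pdhb and Sucla2. The hypoxia response element core was in 15 of 36 windows (41.7%), from 10 of the 27 genes, and in 19.6% of all. The ETS core was in 3 (8.33%, against 8.86%), from 3 genes. The NRF1 core was in 2 (5.56%, against 2.71%), both of Ogdh. These shares are counts of letters, and a gene with more than 1 start site enters more than once. The windows were not matched for base composition.

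Pdk1, the kinase with the highest level here and a known target of the hypoxia-inducible factor, had 234, 223, 295 and 215 CPM in control. It had 165, 171, 291 and 274 CPM in LDHi, so that the groups overlapped. Its blocked log2 fold change was -0.14 (SE 0.13, adjusted p = 0.47). The difference was -0.45 in replicates 1 and 2 and 0.13 in replicates 3 and 4, and over the 31 genes no difference between the library sets in the effect of LDHi was called (lowest adjusted p 0.89). In LDHi the summed CPM of 10 hypoxia-inducible genes also differed by set. It was 1860 and 1880 in replicates 1 and 2 and 3080 and 2680 in replicates 3 and 4. In LDHi+lactate it was 1980 and 2450 in replicates 1 and 2 and 3260 and 2780 in replicates 3 and 4. It was 2230 to 2360 in control, where Ldha (mean 1030 CPM) and Slc2a1 (758) were the largest parts of it. Of the 10 hypoxia-inducible genes tested, 1 (Ndrg1, a stress-responsive gene) was called in LDHi against control, from 30.3 ± 3.24 to 52.3 ± 9.58 CPM. How far this set of genes and Pdk1 moved together was not tested.

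Pdk3 was 0.885-fold (blocked log2 fold change -0.18, adjusted p = 0.155) and lower in 3 of 4 replicate numbers. Pdk4, a kinase that rises in fasting and with fatty acid oxidation, had 2.56, 3.68, 3.73 and 3.29 CPM in control and 2.62, 4.01, 7.5 and 4.68 CPM in LDHi. It was higher in all 4 replicate numbers, though the adjusted p was 0.206 with the block and its interval ran from -0.06 to 0.93. Pdk2 made up 13.0% of the summed kinase level per kb in control and 10.5% in LDHi, and Pdk1 51.0% and 52.5%.

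Among the malic enzymes, Me1 and Me2 were higher in LDHi, and Me3 was lower. Me1, the cytosolic NADP-dependent enzyme (chromosome 9, 86581371 to 86695953, minus strand), had 21.2, 39.6, 28.3 and 21.2 CPM in control. The LDHi libraries had 26.7, 48.5, 47.6 and 28.3 CPM. Each LDHi library was above the control library of its number, while the groups as a whole overlapped because replicates 2 and 3 were high throughout. The blocked fold was 1.36 (log2 fold change 0.44, SE 0.09, adjusted p = 0.00895), with ratios of 1.23 to 1.68. Without the block the adjusted p was 0.451 and the exact permutation p 0.229, and with the block kept but replicate 3 left out the adjusted p was 0.0546. Of the 50-base stretches of the Me1 transcripts, 28.3% also occur in another gene, mostly the processed pseudogene Gm7049, which holds 74 counts against 14373 for Me1.

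The mitochondrial malic enzyme Me2, which prefers NAD, had 68.8, 98.2, 81.8 and 65.2 CPM in control. In LDHi it had 82.3, 104, 121 and 94.8 CPM. Again every LDHi library was above the control of its number, with overlap between the groups. The blocked fold was 1.28 (log2 fold change 0.35, SE 0.08, adjusted p = 0.0128). Without the block the adjusted p was 0.307 and the exact permutation p 0.114, and with the block the adjusted p was 0.0687 without replicate 3 and 0.0936 without replicate 4. The log2 difference was 0.16 in replicates 1 and 2 and 0.54 in replicates 3 and 4.

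Me3, the mitochondrial NADP-dependent malic enzyme (chromosome 7, 89632392 to 89854359, plus strand), was near the lower end of detection, with 6 to 120 counts in a library. Control libraries had 2.11, 2.61, 1.5 and 1.16 CPM. LDHi libraries had 0.744, 1.01, 0.276 and 0.768 CPM. All LDHi libraries lay under all control libraries. Me3 was 0.382-fold in the blocked fit (log2 fold change -1.39, SE 0.32, adjusted p = 0.0128), with an adjusted p of 0.118 without the block, 0.0269 in DESeq2 and an exact permutation p of 0.0286. With the block, the adjusted p was 0.0678, 0.0598 and 0.0582 without replicate 1, 2 or 3. An antisense gene overlaps 3.9% of the Me3 exons and holds 7 counts, and how the counting treated strand is not given.

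The carrier Slc25a1 had 129, 148, 122 and 121 CPM in control and 141, 137, 160 and 151 CPM in LDHi. It was higher in replicates 1, 3 and 4 and lower in replicate 2. The blocked fold was 1.13 (log2 fold change 0.18, SE 0.08, adjusted p = 0.129), and without replicate 2 the adjusted p was 0.0288. Nnt had 0.346 to 0.675 CPM in control and 0.517 to 0.864 CPM in LDHi, and its interval of -0.37 to 1.14 on the log2 scale allows no statement on direction.

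**Figure D3:**
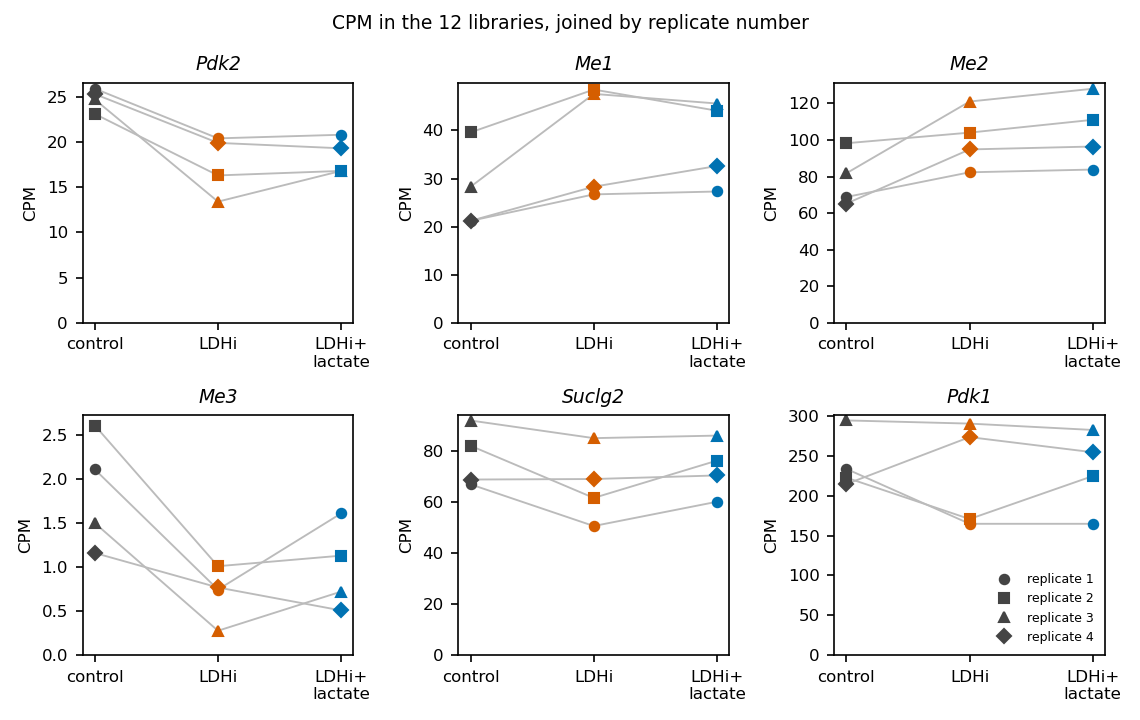
CPM of 6 genes in the 12 libraries, with the 3 libraries of a replicate number joined by a line and each number given its own marker. Pdk2 is lower and Me1 and Me2 are higher in every LDHi library than in the control of the same number, Suclg2 is lower mainly in replicates 1 and 2, and Pdk1 is lower in replicates 1 and 2 but not in replicate 4.

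Along the cycle itself, 1 of 14 genes was called. Suclg2, the GDP-forming beta subunit of succinyl-CoA ligase (chromosome 6, 95473009 to 95718800, minus strand), had 66.8, 81.9, 91.8 and 68.7 CPM in control. It had 50.5, 61.5, 84.9 and 68.9 CPM in LDHi. Its libraries were lower in replicates 1, 2 and 3 and level in replicate 4, with overlap between the groups. The blocked fold was 0.851 (log2 fold change -0.23, SE 0.07, adjusted p = 0.0448), while without the block the adjusted p was 0.586 and the exact permutation p 0.286. With the block kept, the adjusted p rose to 0.224, 0.178 and 0.0787 without replicate 1, 2 or 3. Of the 50-base stretches of Suclg2, 16.0% also occur in another gene, chiefly the processed pseudogene Gm15163 with 175 counts.

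The partner subunits of Suclg2 were close to control, with blocked log2 fold changes of 0.06 for Suclg1 (interval -0.06 to 0.18) and 0.01 for Sucla2 (-0.10 to 0.13). Dlst, the E2 subunit of the 2-oxoglutarate dehydrogenase complex, had 187, 196, 183 and 183 CPM in control and 170, 179, 186 and 180 CPM in LDHi. Its blocked log2 fold change was -0.07 (SE 0.05, adjusted p = 0.40). Ogdh, Ogdhl and Fh1 had blocked log2 fold changes of -0.04, 0.02 and -0.03, with every interval within 0.5 of 0.

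Citrate synthase, which condenses acetyl-CoA with oxaloacetate, varied little, with 419, 414, 358 and 375 CPM in control and 414, 406, 378 and 364 CPM in LDHi. Its fold was 0.997 in the blocked fit, with a log2 interval of -0.10 to 0.09 and an adjusted p of 0.968. The aconitase and isocitrate dehydrogenase genes had blocked log2 fold changes from -0.07 (Idh1) to 0.10 (Idh3g). None of the 7 genes from citrate to 2-oxoglutarate was called, and the intervals of all 7 lay within 0.5 of 0.

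None of the 5 complex subunits was called. Pdha1 had 205, 250, 248 and 236 CPM in control and 227, 252, 296 and 267 CPM in LDHi. It was higher in all 4 replicate numbers, by 1.01- to 1.2-fold, and the groups overlapped. The blocked log2 fold change was 0.15 (SE 0.05, adjusted p = 0.0704), with an adjusted p of 0.0352 when replicate 2 was left out. Pdha1 shares 16.1% of its exon bases with Map3k15 on the opposite strand, a gene with 2742 counts against 103358. Pdhb was 1.13-fold (adjusted p = 0.115), and Dlat, Pdhx and Dld had blocked log2 fold changes of 0.03, 0.08 and -0.03. The median over the 5 subunits was 0.08.

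None of the phosphatase subunits was called. Pdpr, the regulatory subunit, had 39.0, 40.6, 44.4 and 48.0 CPM in control and 45.0, 43.5, 49.5 and 49.2 CPM in LDHi. It was higher in all 4 replicate numbers, with a blocked log2 fold change of 0.12 (SE 0.07, adjusted p = 0.233). Pdp2 had a blocked log2 fold change of 0.12 (interval -0.09 to 0.34). Pdp1 was 1.11-fold in replicates 1 and 2 and 0.795- and 0.608-fold in replicates 3 and 4, and the last ratio rests on a control library of 23.8 CPM that stood above the other 3, at 14.7 to 15.7.

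The direction within each replicate number was the same in all 4 numbers for 8 of 31 genes (25.8%, against 36.5% of all genes tested). Pdha1, Pdhx, Pdk4, Pdpr, Me1 and Me2 were higher in all 4, and Pdk2 and Me3 were lower. Only Pdk4 and Me3, both with low counts, had a ratio beyond a log2 of 1 in any number. The retina progenitor, pigment epithelium and pluripotency markers moved with LDHi by far more (median blocked log2 fold changes -1.66, -2.96 and 1.41, with 6 of 6 and 5 of 5 lower and 6 of 6 higher). The part of these marker changes in the differences of Pdk2, Me1, Me2, Me3 and Suclg2 was not tested.

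**Figure D4:**
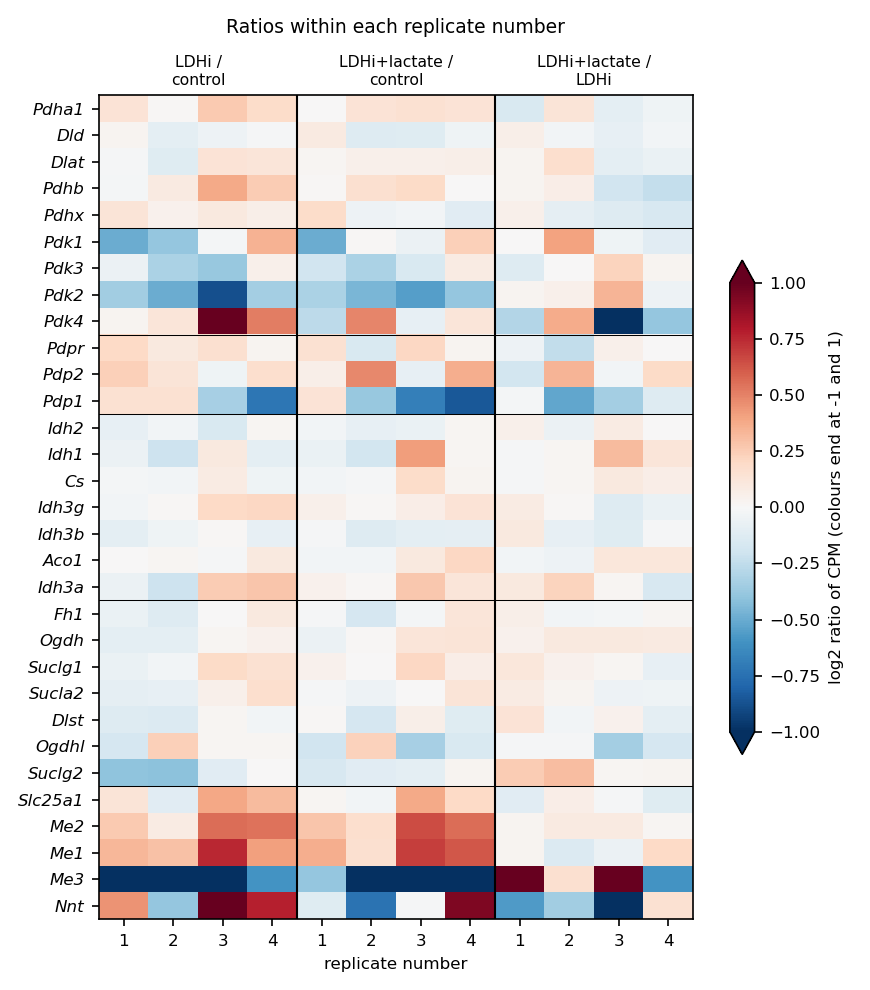
Log2 ratio of CPM between libraries of the same replicate number (columns 1 to 4 in each block) for the 31 genes, red where the first-named group is higher and blue where it is lower, with colours ending at -1 and 1. In LDHi over control, Pdk2 and Me3 are blue and Me1 and Me2 red in all 4 columns, and the same 4 genes keep these colours in LDHi+lactate over control, whereas the block of LDHi+lactate over LDHi is mostly pale.

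Lactate added to LDH-inhibited organoids was then compared with LDHi alone. None of the 31 genes was called in edgeR without the block (0.0% of all genes tested) or with it (0.638% of all genes), nor in DESeq2 (0.305%). At an unadjusted p under 0.05, 0 of 31 genes passed in either edgeR fit, where 3.4% of all genes did without the block and 11.4% with it. The libraries overlapped for all 31 genes, where 2.1% of all genes did not overlap. The median absolute log2 fold change in the blocked fit was 0.04 over the 31 genes and 0.11 over all genes, and 0.04 and 0.06 where the mean was at least 10 CPM. The interval lay within 0.5 of 0 for 27 of 31 genes (87.1%, against 55.6% of all genes), the exceptions being Pdk4, Pdp1, Me3 and Nnt. Where the mean was at least 10 CPM, these shares were 96.4% and 88.0%.

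The genes called in LDHi were followed into this comparison. Pdk2 had 20.8, 16.8, 16.8 and 19.3 CPM in LDHi+lactate, with a blocked log2 fold change against LDHi of 0.08 (interval -0.13 to 0.30). Me1 had 27.3, 44.1, 45.6 and 32.6 CPM (0.01, -0.20 to 0.21), and Me2 had 83.8, 111, 128 and 96.4 CPM (0.06, -0.12 to 0.24). For these 3 genes the intervals leave out a change of 0.5 on the log2 scale.

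Suclg2 and Me3 were less settled. Suclg2 had 60.0, 76.1, 85.9 and 70.3 CPM, higher than LDHi in all 4 replicate numbers by 1.01- to 1.24-fold, with an adjusted p of 0.474. Me3 had 1.61, 1.13, 0.721 and 0.507 CPM and ratios to LDHi of 2.16, 1.12, 2.61 and 0.66, so its interval of -0.25 to 1.20 allows either direction. In the same comparison 3 of 6 retina progenitor and 4 of 5 pigment epithelium markers were higher in the blocked fit and 0 of 6 pluripotency markers were called. This marker change stands beside 0 calls among the 31 genes, where 0.638% of all genes were called with the block. The part of the marker change in the values of the 31 genes was not tested.

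Of the genes with the highest CPM in each role, Pdha1 had 205, 276, 275 and 260 CPM in LDHi+lactate and Pdk1 165, 225, 283 and 255. Pdpr had 43.4, 36.6, 51.4 and 49.2 CPM and Cs 410, 411, 405 and 382. Dlst had 188, 175, 191 and 169 CPM and Slc25a1 131, 144, 159 and 139. Each of these 6 genes overlapped with LDHi, and their blocked log2 fold changes lay between -0.06 and 0.06.

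LDHi+lactate was also compared with control, a comparison that shares libraries with both others. Without the block, 0 of 31 genes were called (0.0% of all genes tested), and DESeq2 called 0 of 31 (1.28% of all genes). At an unadjusted p under 0.05, edgeR had 2 of 31 genes without the block (6.45%, against 9.33% of all genes) and 5 of 31 with it (16.1%, against 26.4%). With the replicate block, 3 of 31 genes were called (9.68%), where 8.05% of all genes were. Me1 and Me2 were higher (2 of 31, against 4.18% of all genes), and Pdk2 was lower (1 of 31, against 3.87%). The libraries did not overlap for 1 of 31 genes, Pdk2 (3.23%, against 4.23% of all genes).

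Pdk2 was 18.5 ± 1.96 CPM (SD, n = 4) in LDHi+lactate, 0.743-fold of control in the blocked fit (log2 fold change -0.43, SE 0.10, adjusted p = 0.0278), with ratios of 0.683 to 0.802. The adjusted p was 0.398 without the block, and the exact permutation p was 0.0286. Me1 was 37.4 ± 8.91 CPM, 1.37-fold of control (log2 fold change 0.45, SE 0.09, adjusted p = 0.0228), and 0.652 was its adjusted p without the block. Me2 was 105 ± 19.1 CPM, 1.33-fold of control (log2 fold change 0.41, SE 0.08, adjusted p = 0.0191), with an adjusted p of 0.459 without the block. With 1 replicate number left out and the block kept, Pdk2 had adjusted p-values of 0.0589 to 0.094, and Me1 and Me2 were called only without replicate 2.

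Me3 was under control in all 4 replicate numbers (0.434- to 0.763-fold) but was not called (adjusted p = 0.0909 with the block). Suclg2 was 0.943-fold (adjusted p = 0.494). Pdp1 was 0.735-fold, with an adjusted p of 0.114 in edgeR and 0.0478 in DESeq2, both with the block. Its ratios were 1.1, 0.77, 0.626 and 0.554 in replicates 1 to 4, the last against the control library of 23.8 CPM that stood apart. In this comparison 10 of 31 genes went the same way in all 4 replicate numbers (32.3%, against 35.6% of all genes). Of the markers, 0 of 6 for retina progenitors were called with the block, 4 of 5 for pigment epithelium were lower and 6 of 6 for pluripotency were higher, and their part in the values of Pdk2, Me1 and Me2 was not tested.

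The 31 genes were also compared between the library sets, replicates 3 and 4 against replicates 1 and 2. Each set holds 2 replicate numbers, and libraries of 1 number deviate together (correlations of 0.329 to 0.634). Counts were therefore summed over the 3 libraries of each number and tested as 2 sums against 2, a test chosen after seeing the data. By edgeR on these sums 0 of 31 genes were called (0.112% of all genes tested), and 5 of 31 had an unadjusted p under 0.05 (16.1%, against 16.9% of all genes). A fit that took the 12 libraries as independent, with treatment in the model, called 10 of 31 genes (32.3%), where 27.9% of all genes were. Of these, 4 were higher (12.9%, against 13.7%) and 6 lower (19.4%, against 14.3%). The adjusted p-values of that fit are too small, since it counts libraries of 1 number as separate, and leaving out single libraries does not test this. The labelled cell type, the depth and the experiment all change with the set and cannot be told apart.

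Among the regulators, Pdp2, a catalytic phosphatase subunit, had 23.1 to 32.2 CPM in the 6 libraries of replicates 1 and 2 (median 25.6) and 33.5 to 47.5 in the 6 of replicates 3 and 4 (median 36.1), with no overlap. Its log2 difference over the sums was 0.52 (SE 0.15, adjusted p = 0.21), and the adjusted p was 0.00305 with 12 libraries. Pdk1 ran from 165 to 234 CPM (median 197) and from 215 to 295 (median 278), a log2 difference of 0.44 over the sums (SE 0.11, adjusted p = 0.194, and 0.0127 with 12 libraries). The differences of Pdpr and of Ogdhl, an enzyme closely related to Ogdh, were 0.23 and 0.32 on the log2 scale (adjusted p = 0.331 and 0.295 over the sums).

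Among the cycle enzymes, Idh3g, the regulatory gamma subunit of the NAD-dependent isocitrate dehydrogenase, had 137 to 162 CPM (median 153) in replicates 1 and 2 against 101 to 127 (median 114) in replicates 3 and 4, with no overlap. Its log2 difference over the sums was -0.41 (SE 0.11, adjusted p = 0.20, and 0.00106 with 12 libraries). Cs had 406 to 419 CPM against 358 to 405, also without overlap, at a log2 difference of -0.13 (adjusted p = 0.47 over the sums). Suclg1 (-0.24), Idh3b (-0.17), Dld (-0.16) and Me3 (-0.93) were not called over the sums either. With 12 libraries, Cs lost its call in 7 of the 12 cases with 1 library left out and Dld in 8 of 12, and without LDHi+lactate replicate 1 the count fell from 10 to 6 genes.

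**Figure D5:**
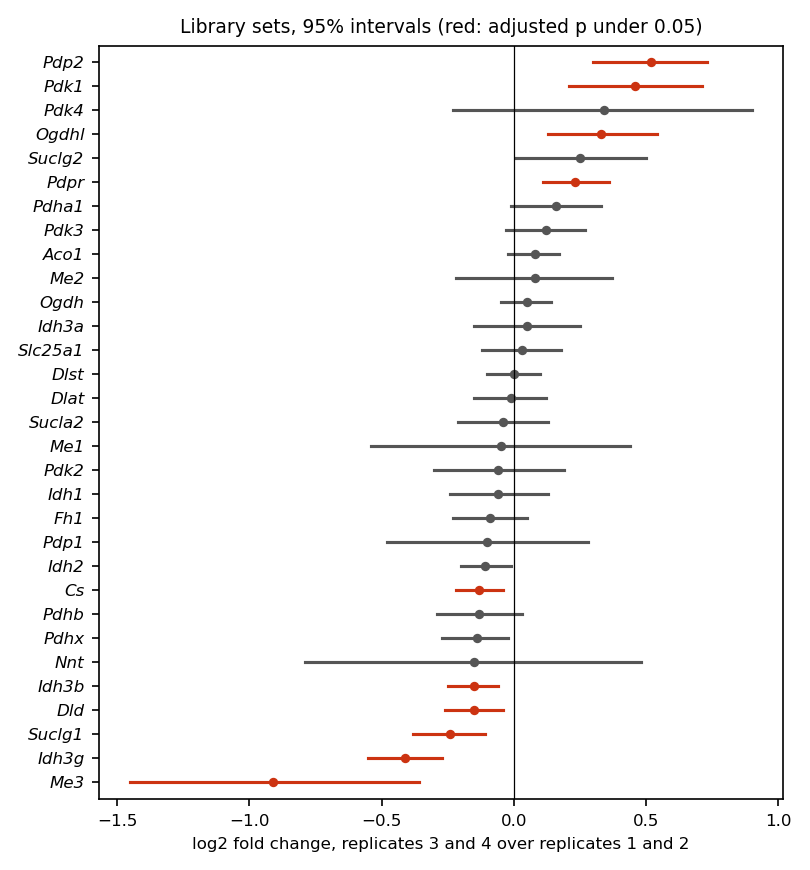
Log2 fold changes of the 31 genes between the library sets (replicates 3 and 4 over replicates 1 and 2), from the fit that takes the 12 libraries as independent, as points with 95% intervals, ordered by size with genes called by that fit in red. Pdp2, Pdk1, Ogdhl and Pdpr lie above 0 and Cs, Idh3b, Dld, Suclg1, Idh3g and Me3 below 0 among the red points, and none of the 31 is called on counts summed per replicate number.

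Related genes outside the 31 were read from 6 further lists, in which 30 of 31 genes were tested. Without the block, 0 of 30 were called in any of the 3 treatment comparisons, where 3.09% of all genes were in LDHi against control and 0.0% in the others. With the block, 1 of 30 (3.33%, against 19.9% of all genes) was called in LDHi against control. None was called in LDHi+lactate against LDHi (0.638% of all genes) or against control (8.05%). The called gene was Glud1, glutamate dehydrogenase, which feeds 2-oxoglutarate into the cycle and belongs to the 7 tested genes of cycle filling and draining. It had 233 ± 27.7 CPM in control, 320 ± 40.8 in LDHi and 291 ± 32.4 in LDHi+lactate (blocked log2 fold change of LDHi against control 0.46, SE 0.09, adjusted p = 0.00563, and 0.0573 without the block).

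The other 5 lists had 0 calls in LDHi against control. Their median blocked log2 fold changes were 0.02 for the 7 other cycle enzymes and 0.09 for the 3 genes of pyruvate entry and carboxylation. They were -0.13 for the 3 genes of acetyl-CoA supply outside the complex, 0.06 for 4 genes of lipoic acid attachment, which arms the E2 subunits, and -0.10 for 6 related 2-oxoacid dehydrogenase genes. Sdha, a subunit of succinate dehydrogenase, had 330 ± 20.8, 336 ± 13.0 and 327 ± 6.90 CPM in control, LDHi and LDHi+lactate. Ldha, whose enzyme GNE-140 inhibits, had 1030 ± 51.4, 1090 ± 175 and 1080 ± 138 CPM and was not called in any of these comparisons.

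Of the remaining marker lists, in LDHi against control with the block, 0 of 4 neuron markers were called, 2 of 5 neural crest and mesenchyme markers were lower and 2 of 5 mesoderm and endoderm markers were higher. In the same fit 1 of 3 surface epithelium markers was higher, and of 3 endothelium and blood markers 1 was higher and 1 lower. Their summed CPM overlapped between control and LDHi for all of these lists. Beside the 31 genes these values are given as measured, and their part in the results was not tested.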

How the data were processed

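RNA of 12 libraries was sequenced (TruSeq mRNA libraries, single reads of 50 bp). The authors deposited raw counts per Ensembl gene for each library, with no normalization. Per the labels, cutadapt 1.13, STAR, HTSeq 0.6.1p1 and DESeq2 1.14.1 were used with the genome build mm10. Neither a STAR version nor the release of the annotation nor how HTSeq treated strand is given in the sources used, so reads of a gene and of one on the opposite strand cannot be told apart. Of 54232 gene IDs, 54165 (99.9%) matched GENCODE vM21, which gave symbols, positions and exon lengths.

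The main fit was edgeR 4.0.16 (R 4.3.3), quasi-likelihood, with TMM, filterByExpr by group and all 12 libraries, adjusted by Benjamini-Hochberg over 17721 genes and called under 0.05. CPM used TMM, and log2 CPM a prior count of 2. Groups came from the labels, which number replicates 1 to 4 in every group. Deviations from the group means correlated at 0.329 to 0.634 between libraries of the same number and at -0.22 to 0.197 between different numbers of 1 set, so the numbers were taken to pair the libraries, a pairing read from the data. Results of a fit blocked by this number stand next to those of the main fit. Single genes were also tested by an exact two-sided permutation test on log2 CPM. Its smallest p for 4 against 4 is 0.0286, and it takes the libraries as unpaired. The edgeR fit without the block was tested on simulated counts of unpaired libraries, and the blocked fit was not. Alternatives were DESeq2 1.42.0, other scalings and filters, a term for the library set, fits within 1 set and fits with libraries left out. DESeq2 and other scalings with the block, and the library sets compared on counts summed per replicate number, were chosen after seeing the data.

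The 31 genes and the 21 gene lists (6 roles, 6 related pathway lists, hypoxia-inducible genes and 8 marker lists) were chosen with earlier results of these data known, so counts and medians are given and no list was tested. Full values are given for genes called in a treatment comparison with or without the block and for the highest gene of each role by CPM, and of each other list at most 3 called genes are named. Sdha and Ldha were named after their values were seen. Start-site windows came from RefSeq tables (GRCm38.p6). Figures were drawn with matplotlib 3.10.9.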

Additional observations from a re-analysis of the deposited data

Results flagged for a closer look

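In 93 groups of 4 libraries (31 genes in 3 conditions), 2 libraries stood apart from the other 3 of their group by Dixon's criterion, which chance alone passes in about 1 in 20 groups. Pdp1 was at 23.8 CPM in control replicate 4, against 14.7 to 15.7 CPM in the other control libraries. Ogdhl was at 56.9 CPM in LDHi+lactate replicate 1, against 73.6 to 75.7 CPM in the others.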

How the results depend on the processing

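In LDHi against control, 0 of 31 genes were called without the block and 5 with the replicate block. With the block, RLE size factors, library totals and DESeq2 (all chosen after seeing the data) also gave 5. The set as a term gave 2 and DESeq2 without a block 2. In LDHi+lactate against control the counts were 0 without and 3 with the replicate block, 3 with RLE size factors or library totals and 4 with DESeq2, each with the block. With the block and 1 replicate number left out, the first of these comparisons gave 1 (without replicate 3) to 5 genes. Leaving out any libraries, with or without the block, gave 0 to 5 genes in the first of these comparisons and 0 to 2 in the second, and 6 to 10 between the library sets. Between the sets, a log2 fold change of at least 0.5 left 2 genes, and counts summed per replicate number (chosen after seeing the data) gave 0, where the fit on 12 libraries gave 10. In LDHi+lactate against LDHi every alternative gave 0. Among the 31 genes, the blocked fit changed no other call. For the 8 gene and comparison pairs called with the block, 231 values under the alternatives kept the direction of the fit without the block (0 reversed). Of these values, 49 passed the threshold. The alternatives reuse the libraries on which the 8 pairs were called, so a kept direction was likely and is no separate support. The cause of the differences between settings was not tested. Me3 held 6 to 120 counts in a library and Nnt 9 to 36.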
